A study of Mus musculus with 2 samples.

Results

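The Hox genes of the mouse lie in 4 clusters, and the 5hmC peaks in and around these clusters are described here for mouse embryonic fibroblasts (MEFs). A peak was taken as a member when it shared at least 1 base with an mm9 window set around a cluster: HoxA at chr6:52100000-52215000, HoxB at chr11:96050000-96235000, HoxC at chr15:102745000-102870000 and HoxD at chr2:74500000-74605000. Together the windows span 530 kb and hold 38 listed Hox genes. By this rule there was 1 member among the 60157 peaks at passage 0 and 0 members among the 6726 peaks at passage 5, so the finding is the scarcity of peaks, and it is described against the 500 kb on each side of every window.

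The cells were C57BL/6 MEFs from embryos at day 13.5, grown in serum and harvested either before any passage (passage 0) or at passage 5, with no genetic change or drug named for either group. There was 1 library per passage, and no label says how many embryos stood behind it. 5-Hydroxymethylcytosine, the base that TET enzymes make from 5-methylcytosine, was captured from sheared DNA with a glucosylation and biotin kit and sequenced. A peak is therefore a stretch of DNA enriched in the captured library, and the lists give no level of 5hmC at single bases.

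Hox genes encode homeodomain transcription factors that set positional identity along the body axis and the limbs, and fibroblasts are known to keep a pattern of Hox expression that reflects where in the body they came from. Within a cluster the genes stand in order of their paralog group, from group 1, used farthest toward the head, to group 13, used at the tail end and in the tips of the limbs. The clusters are also known as dense, CG-rich loci where Polycomb and Trithorax proteins act over long stretches and where DNA methylation is low over long distances in many embryonic cell types. In mammalian cells 5hmC lies almost entirely at CG dinucleotides, so the CG content of the Hox promoters is shown first.

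RefSeq promoters (GRCm38.p6, from 250 bases before to 50 bases after a gene's start) were matched by symbol for 22 of the 38 genes, with 24 promoters in all. The sequences below are the 250 bases before the start, 5′ to 3′ on the gene's strand, with each CG in capitals, for the promoters with the most and the fewest CG in HoxA and in HoxD. Of the HoxD genes, Hoxd4 was tied with Hoxd11 for the fewest. They show how far promoters of these clusters differ in CG content. Their GRCm38.p6 positions cannot be compared with the mm9 positions of peaks.

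Hoxa13, chr6:52260881-52261130, strand -: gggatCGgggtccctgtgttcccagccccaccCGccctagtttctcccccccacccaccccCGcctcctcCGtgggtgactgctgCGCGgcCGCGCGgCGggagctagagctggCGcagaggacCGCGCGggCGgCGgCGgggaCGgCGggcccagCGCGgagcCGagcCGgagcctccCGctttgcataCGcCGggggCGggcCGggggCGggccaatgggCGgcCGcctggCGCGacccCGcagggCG

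Hoxa9, chr6:52227371-52227620, strand -: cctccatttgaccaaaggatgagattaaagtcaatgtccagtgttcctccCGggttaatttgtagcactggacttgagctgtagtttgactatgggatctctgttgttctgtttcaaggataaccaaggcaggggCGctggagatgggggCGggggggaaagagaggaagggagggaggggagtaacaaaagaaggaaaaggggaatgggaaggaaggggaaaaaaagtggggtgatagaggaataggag

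Hoxd13, chr2:74667975-74668224, strand +: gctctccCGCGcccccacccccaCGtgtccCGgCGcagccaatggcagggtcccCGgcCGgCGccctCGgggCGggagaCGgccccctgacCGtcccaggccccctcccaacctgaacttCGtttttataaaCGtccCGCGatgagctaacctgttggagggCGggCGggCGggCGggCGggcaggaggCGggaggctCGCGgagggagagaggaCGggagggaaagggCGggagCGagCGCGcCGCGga

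Hoxd11, chr2:74679308-74679557, strand +: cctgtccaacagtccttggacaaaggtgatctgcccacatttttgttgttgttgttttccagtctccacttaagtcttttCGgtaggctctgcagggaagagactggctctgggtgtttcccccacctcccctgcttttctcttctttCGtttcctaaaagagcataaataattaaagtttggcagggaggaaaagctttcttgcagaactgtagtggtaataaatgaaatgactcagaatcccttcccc

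The promoters of the group 13 genes Hoxa13 and Hoxd13, which act in the digits and the urogenital end of the body, were the richest, with 45 and 37 CG in 300 bases. Those put them at the 98.2 and 94.7 percentiles of 32851 mouse promoters of the same length. Hoxa9, a gene of the posterior trunk and of blood stem cells, had 4, and so did 1 of the 2 Hoxd11 promoters. The 250 bases printed hold 35 CG for Hoxa13, 3 for Hoxa9, 31 for Hoxd13 and 2 for Hoxd11. Over the 24 Hox promoters the median was 14.5 CG, with a range of 4 to 45, beside a median of 7 over all promoters. At least 10 CG were present in 17 of the 24 Hox promoters (70.8%) and in 43.5% of all promoters. The median share of G and C was 57.7% against 52.7%. The HoxB entries were Hoxb4, Hoxb8 and Hoxb1, with 14, 13 and 10 CG, and the only HoxC entry was Hoxc4, with 9. Hox promoters thus reached from CG-poor to very CG-rich. The HoxB, HoxC and HoxD windows held no peak at either passage, as described below. The single HoxA peak could not be placed relative to a promoter without mm9 gene positions.

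**Figure D1:**
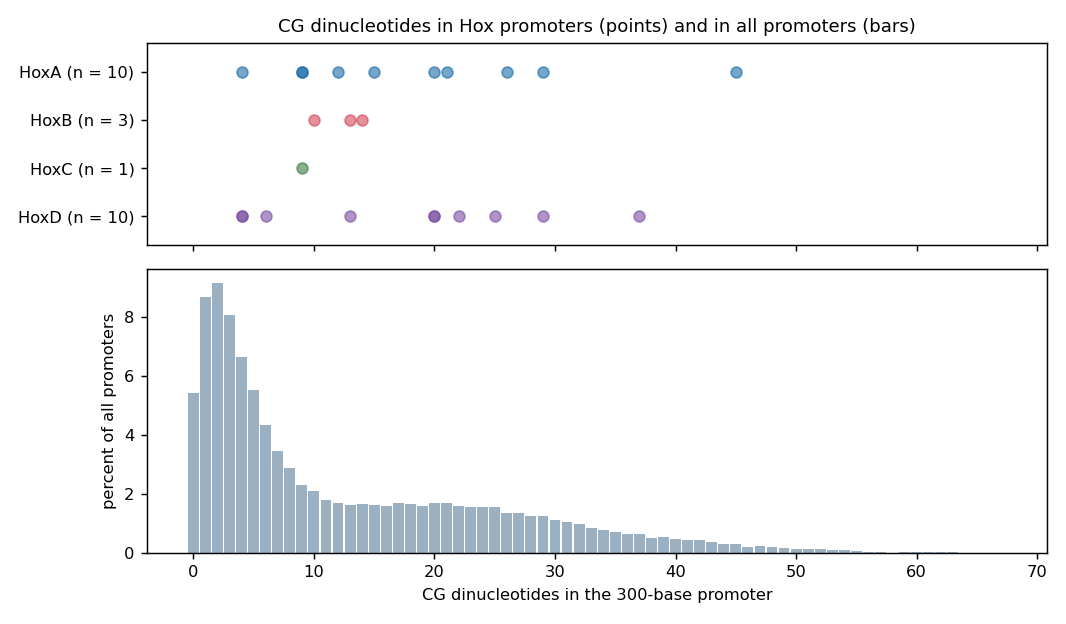
CG dinucleotides per 300-base promoter (x axis) for the 24 Hox promoters, 1 point each in the upper panel by cluster, and for all 32851 promoters in the lower panel as percent of promoters. Hox promoters run from 4 to 45 CG, and 17 of 24 have at least 10.

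Almost no 5hmC peak was called inside the Hox clusters at passage 0, although peaks were plentiful on both sides. The 4 windows held 1 peak (exact 95% Poisson interval of the count 0.0253 to 5.57), or 1.89 per Mb. The flanks, 4 Mb in all, held 156 peaks, or 39.0 per Mb. Flank density was 20.7 times window density (95% exact counting interval 3.66 to 822). At the density of the flanks the windows would have held 20.7 peaks, and at the autosomal density of 25.1 per Mb 13.3 peaks. All intervals treat peaks as independent, cover counting error only and stand in for no replicate, and read depth is unknown. Peaks were in fact clumped. At the autosomal density a length like that of HoxA would hold 2.88 peaks, yet 41.6% of autosomal pieces of that length held none. The intervals are therefore likely too narrow.

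Covered bases gave the same contrast. Peaks covered 605 bases of the windows, which is 0.114%, and 141394 bases of the flanks, which is 3.53%, or 31.0 times the share. Over the autosomes, taken from the first to the last peak on each, the share was 2.37%. By mean density the flanks were thus somewhat richer in peaks than the autosomes (1.56 times by number), and the windows far poorer. The flank ratio ran from 0.957 at HoxC to 1.95 at HoxA. Peaks were unevenly spread, so counts in autosomal pieces of equal length are given below.

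The single peak inside a window lay in HoxA, at chr6:52146664-52147268. HoxA carries Hoxa2 and Hoxa3, which pattern the hindbrain and pharyngeal arches, Hoxa5, which acts in the lung and the axial skeleton, and Hoxa9 to Hoxa13 at the posterior end. The peak was 605 bp wide, narrower than all but 7.13% of passage 0 peaks. Its score, the authors' own value per peak, was 107.64, at the 35.2 percentile of the passage 0 list. It began 46.7 kb from the lower edge of the window, 40.6% of the way along, with the preceding peak 57.9 kb and the following peak 97.1 kb away. No passage 5 peak shared a base with it, which was the common case, as 7.63% of all passage 0 peaks had one. With no mm9 gene positions used here, it was not assigned to a gene, an exon or an intron.

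The flanks of HoxA were dense. The lower flank held 22 peaks and the upper flank 27, or 49.0 per Mb together, against 8.70 per Mb in the window. The ratio was 5.64, but with 1 peak in the window its counting interval ran from 0.965 to 227, so a difference was not shown for HoxA alone.

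HoxB held no passage 0 peak in 185 kb. It is the longest of the 4 windows, with Hoxb13 set apart at one end, Hoxb1, a gene of hindbrain segmentation, at the other, and Hoxb2 to Hoxb9 between them. Its flanks held 16 peaks on the Hoxb13 side and 20 on the Hoxb1 side, or 36.0 per Mb. A count of 0 was taken to allow up to 3 peaks, here 16.2 per Mb, and the flank density was 2.22 times that. This ratio leaves out the counting error of the flanks. It is therefore not a lower limit of the difference and cannot be set beside the counting interval given for HoxA.

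HoxD also held no passage 0 peak, over 105 kb. Its posterior genes Hoxd10 to Hoxd13 pattern the limb and digits, and Hoxd1, Hoxd3 and Hoxd4 stand at the other end. The flanks held 14 peaks on the Hoxd13 side and 33 on the Hoxd1 side, which was the densest flank of all at 66.0 per Mb. The count of 0 was taken to allow up to 28.6 peaks per Mb, and the flanks together, at 47.0 per Mb, stood at 1.65 times that. As at HoxB, this ratio leaves out the counting error of the flanks and is not a lower limit of the difference.

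HoxC had no passage 0 peak in 125 kb. Its flanks were the least dense of the 4 clusters and stood near the autosomal average, at 0.957 times its density. The cluster runs from Hoxc13, which acts in hair and nails, through Hoxc8 to Hoxc10 of the thoracic and lumbar body to Hoxc4. The flank on the Hoxc13 side held 7 peaks and that on the Hoxc4 side 17, or 24 per Mb. This equals what a count of 0 allows in this window (24 per Mb), so no depletion was detectable for HoxC alone. The plot of peaks along the 4 loci shows the windows empty except for the HoxA peak.

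**Figure D2:**
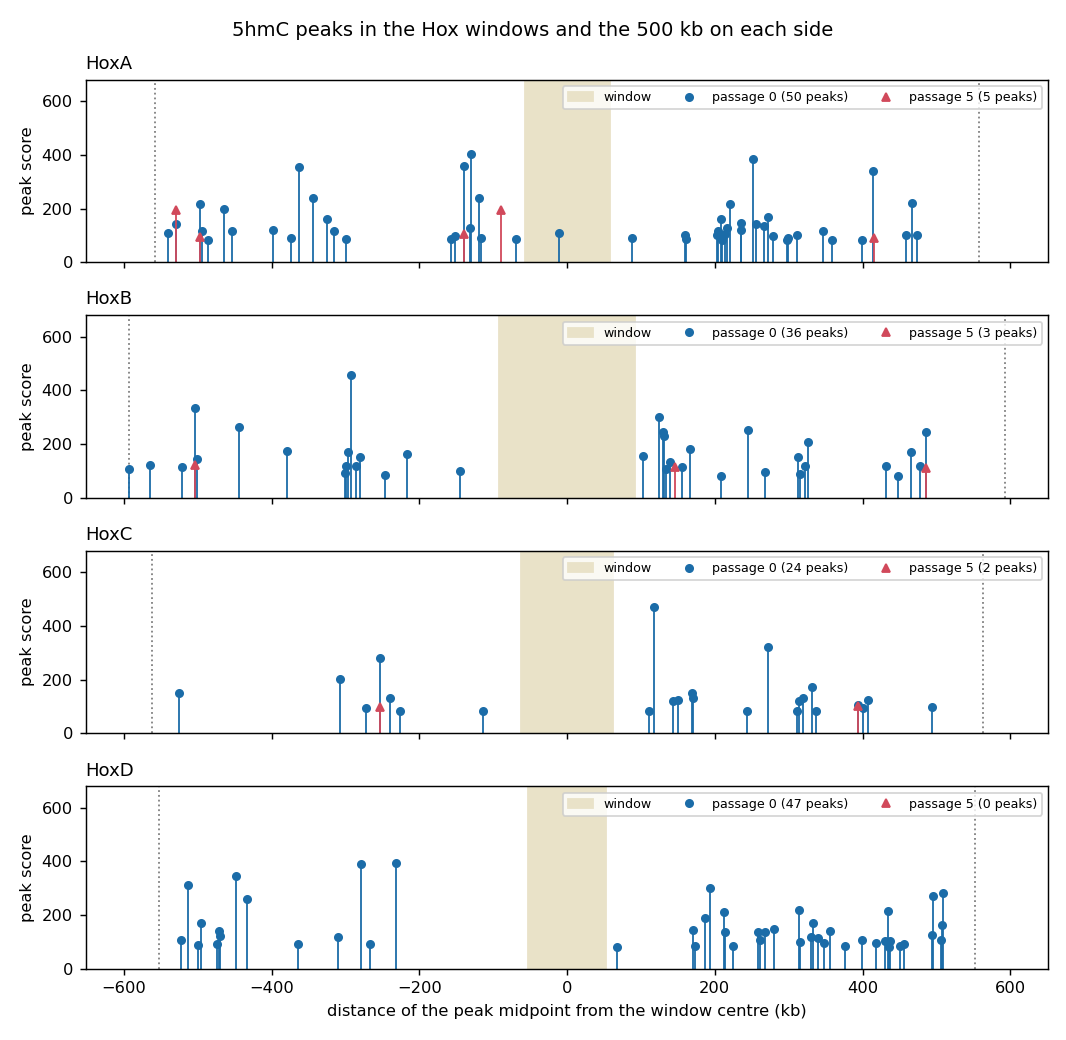
Peaks by distance of their midpoint from the window centre in kb (x axis) and by the authors' score (y axis, comparable only within a passage), for passage 0 (circles) and passage 5 (triangles). Shading marks the window and dotted lines the ends of the 500 kb flanks: 1 peak lies in a shaded area, at passage 0 in HoxA.

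Empty stretches of this size are common in the genome as a whole and less common where peaks are dense. The autosomes were cut into tiles as long as each window. Of the tiles as long as HoxA, 41.6% had no passage 0 peak, and the shares were 34.2%, 40.3% and 43.1% at the lengths of HoxB, HoxC and HoxD. The median over all tiles was 2 peaks at the HoxB length and 1 at the HoxA, HoxC and HoxD lengths. Judged by length alone, an empty window is therefore an ordinary observation. Some tiles had at least 20 peaks in their 500 kb flanks, both sides added together, as all 4 Hox loci had. Among these the shares without a peak were lower, at 11.4%, 5.63%, 10.3% and 12.7% for the lengths of HoxA, HoxB, HoxC and HoxD. Of those as long as HoxA, 23.8% had no more than 1 peak. The median in such tiles was 4 peaks at the HoxA and HoxC lengths, 6 at the HoxB length and 3 at the HoxD length. With at least 40 flanking peaks on both sides together, which HoxA and HoxD had, the shares were 6.07%, 2.58%, 5.37% and 7.27%. Both minimums were chosen after the counts were seen, and tiles in assembly gaps were not removed.

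**Figure D3:**
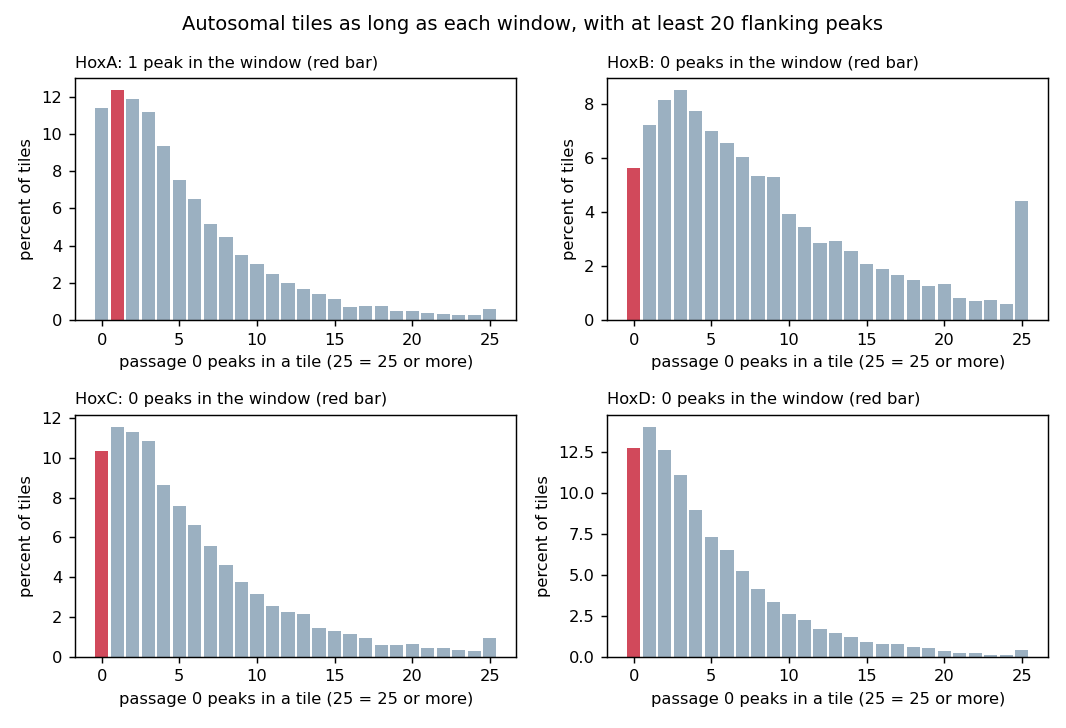
Passage 0 peaks per autosomal tile (x axis) as percent of tiles (y axis). Tiles are as long as each window and have at least 20 peaks in both flanks together. The red bar holds the count of the Hox window itself. HoxB, HoxC and HoxD fall in the bar at 0 and HoxA in the bar at 1.

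The stretch without a peak reached beyond the window at every cluster. The longest one touching HoxA, from its peak to the next one above, measured 97.1 kb. It measured 247 kb around HoxB (chr11:95997367-96244775), 225 kb around HoxC (chr15:102693538-102918259) and 298 kb around HoxD (chr2:74321384-74619450). Of the 60067 stretches between neighbouring passage 0 peaks on the autosomes, 6.97%, 2.15%, 2.43% and 1.72% were at least as long as those at HoxA, HoxB, HoxC and HoxD. Most stretches are short, however, and the long ones held much of the peak-free sequence. Those at least as long held 62.8%, 44.6%, 46.3% and 41.6% of its bases, in the same order. By share of sequence, length alone was therefore not unusual at any cluster. The HoxD stretch was the least usual of the 4 in combining length with dense surroundings. It had 54 peaks within 500 kb of its ends, and 43 stretches, itself included, were as long and had as many. The corresponding numbers were 164 for HoxB, 427 for HoxC and 512 for HoxA.

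In each of the 4 clusters the nearest passage 0 peak outside was closer on the side of the low-numbered genes than on the group 13 side. At HoxD the peak beyond Hoxd13 ended 178.6 kb from the window (chr2:74319665-74321383), whereas the peak beyond Hoxd1 began 14.5 kb away (chr2:74619451-74620133). The distances were 52.6 kb and 9.78 kb at HoxB, on the Hoxb13 and Hoxb1 sides. At HoxA they were 29.4 kb beyond Hoxa13 and 11.2 kb on the side of Hoxa2, and at HoxC 51.5 kb beyond Hoxc13 and 48.3 kb beyond Hoxc4. The edges of the windows are set by the rule and not by gene ends, so these distances shift with them. The order of the genes was taken from the GRCm38.p6 gene table, in which all 38 symbols were found.

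Flank totals were also lower on the group 13 side, with 64 peaks in 2 Mb (32.0 per Mb) against 92 (46.0 per Mb). This held at HoxB, HoxC and HoxD but not at HoxA, where the group 13 side held 27 peaks and the other 22. No test of this difference was made. In the plot of density by flank the order of sides is therefore reversed at HoxA.

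**Figure D4:**
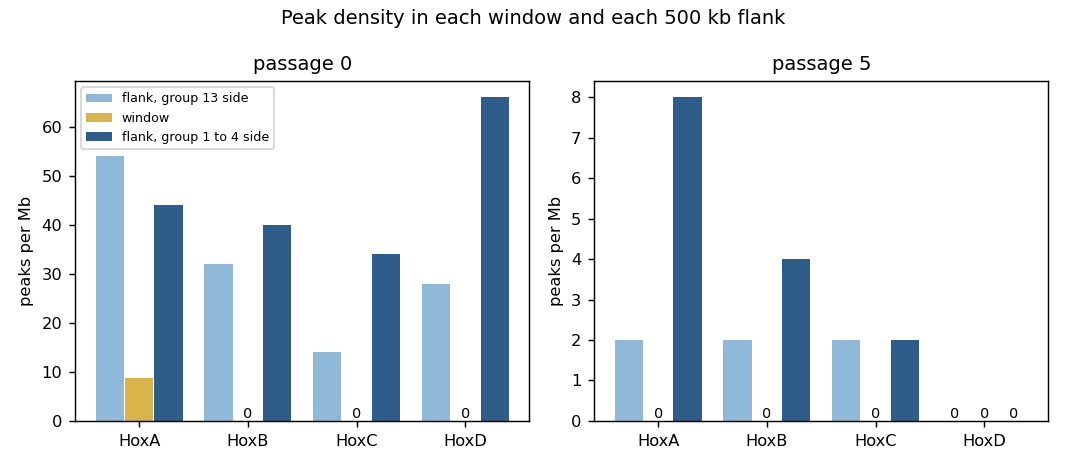
Peaks per Mb (y axis) in each window and in the 500 kb on its group 13 side and on its group 1 to 4 side, at passage 0 (left) and passage 5 (right, on its own scale). At passage 0 the windows stand at 8.70 (HoxA) and 0, and the flanks between 14.0 and 66.0.

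Several peaks that border the clusters had low scores. By a cut not set in advance, 5 of the 8 nearest passage 0 peaks outside scored in the lowest 20% of the list. The lowest was the one beyond Hoxc4 (chr15:102918260-102918952), with a score of 81.54 at the 2.78 percentile. The other 3 lay higher. The peak beyond Hoxd13 had a score of 395.74, at the 95.8 percentile, and a width of 1719 bp. The peak beyond Hoxb1 (chr11:96244776-96245473) had a score of 153.81, at the 62.8 percentile, and that beyond Hoxb13 (chr11:95996679-95997366) one of 99.15, at the 27.1 percentile. None of the 8 shared a base with a passage 5 peak, as was usual, since 7.63% of all passage 0 peaks did.

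Over the 4 clusters together, peak density was lowest next to the windows, an order seen at HoxA and HoxC but not at HoxB and HoxD. The first 50 kb on all sides held 10 peaks (25 per Mb), of which 6 lay at HoxB, 2 at HoxA and 1 each at HoxC and HoxD. From 50 to 100 kb there were 14 peaks (35.0 per Mb), from 100 to 250 kb 58 (48.3 per Mb) and from 250 to 500 kb 74 (37.0 per Mb). The 4 distance classes held 6, 3, 15 and 12 peaks at HoxB, so its first 50 kb were its densest per Mb. At HoxD no peak lay between 50 and 100 kb on either side.

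Flank peaks were ordinary members of the passage 0 list. Their median score was 120.6 (quartiles 95.7 and 171), beside 129.0 in the whole list (97.2 and 192), and their median width was 826 bp beside 850 bp. The highest score, 472.16, belonged to a peak 53.9 kb beyond Hoxc4 (chr15:102923851-102925433, 1583 bp). The widest peak, 2691 bp, lay 198 kb beyond Hoxb13 (chr11:95849019-95851709) and scored 456.73. Strong and broad peaks were thus present within 200 kb of clusters whose windows held none.

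At passage 5 no peak was called in any of the 4 windows. That is 0 peaks and 0 covered bases in 530 kb, which allows up to 3 peaks or 5.66 per Mb. The flanks held 10 peaks (2.50 per Mb), near the autosomal 2.80 per Mb, and at that density the windows would have held 1.33. A lower density in the windows was therefore not detectable at passage 5. Tiles without a passage 5 peak made up 78.9%, 70.8%, 77.6% and 80.3% of those as long as HoxA, HoxB, HoxC and HoxD, so empty windows were the usual case.

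The comparison of passages inside the clusters rests on 1 peak against 0, too few to show a difference. In the flanks the numbers at passage 0 and passage 5 were 49 and 5 at HoxA, 36 and 3 at HoxB, 24 and 2 at HoxC, and 47 and 0 at HoxD. The ratio over all flanks was 15.6 (95% exact counting interval 8.26 to 33.2), and that interval includes the ratio of the whole lists, 8.94. Flank peaks covered 141394 bases at passage 0, 27.4 times the 5155 bases of passage 5, beside a ratio of 14.7 over the autosomes. Unknown depth acts on each of these numbers, and its part was not tested.

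The passage 5 peaks near the clusters lay mostly on passage 0 peaks. Of the 10 flank peaks, 8 shared a base with a passage 0 peak (80%, exact 95% interval 44.4% to 97.5%), beside 69.9% of the whole passage 5 list. In the other direction 8 of the 156 flank peaks at passage 0 had a passage 5 peak (5.13%, 2.24% to 9.85%), beside 7.63% of the whole list. The one inside HoxA had none. The intervals of both shares include the value of the whole list.

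The shared sites stood 81.9 to 471 kb from the windows. The closest was on the Hoxa2 side of HoxA, where the passage 0 peak at chr6:52016893-52018128 had a score of 356.92 and the passage 5 peak at chr6:52017140-52017680 one of 105.37. At HoxC they were on the Hoxc13 side at chr15:102554050-102554663 and on the Hoxc4 side at chr15:103201113-103201531, as placed at passage 5. The 2 passage 5 peaks without a partner were closer to the clusters. One lay 31.7 kb from HoxA (chr6:52068105-52068338), with a width of 234 bp and a score of 195.32. It was among the very narrowest peaks of the passage 5 list, at the 0.0297 percentile of width. The other lay 53.9 kb beyond Hoxb1 (chr11:96288870-96289463), with 594 bp and 113.99.

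Of the 4 clusters, HoxD alone had no passage 5 peak in either flank. Its 47 flank peaks at passage 0 gave a retained share of 0% (exact 95% interval 0% to 7.55%). The list-wide share, 7.63%, lay just above that interval. The nearest passage 5 peaks lay 542 kb beyond Hoxd13 (chr2:73957895-73958375) and 633 kb beyond Hoxd1 (chr2:75238452-75239174), which left 1280 kb without one. The corresponding stretches were 504 kb at HoxA, 649 kb at HoxB and 646 kb at HoxC. A count of 0 in 1 Mb allows up to 3 peaks per Mb, above the autosomal 2.80. By peak density, HoxD flanks therefore cannot be told apart from an average region at passage 5. HoxD was singled out after its counts were seen, and the interval of the retained share makes no allowance for that.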

How the data were processed

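Peaks of 5hmC were taken from 1 deposited list for MEFs at passage 0 and 1 for passage 5. CASAVA 1.8, Bowtie 0.12.7, MACS 1.4.1 and mm9 are listed in the submitters' processing notes. For their settings, an input control or a peak threshold, nothing is given in the sources used. The score is the authors' deposited value per peak and was used only within a list. Deposited starts, counted from 0, were moved to count from 1.

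Peaks belonged to a region by sharing at least 1 base, and covered bases were clipped to it. Tiles lay on chromosomes 1 to 19, between the first and last peak of either list. Intervals were exact at 95% (Clopper-Pearson, Poisson, or conditional binomial for ratios), and a count of 0 was taken to allow up to 3. With 1 library per passage no p-value was computed. No mm9 gene positions were used, so the planned counts per Hox gene and for related genes were not made. Peaks named are those in the windows, the nearest outside each edge, and others chosen after their values were seen. Windows, members and lists were chosen with earlier results of these data known. Counting was tested on simulated data, and overlaps equalled those of bedtools 2.31.1. Python 3.11.15, numpy 2.4.6, pandas 2.3.3, scipy 1.17.1 and matplotlib 3.10.9 were used.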

Additional observations from a re-analysis of the deposited data

How the results depend on the processing

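Of 39 recomputed values for 9 results, 29 stayed near the reported value and 10 moved further. Changes of direction were not checked. The 29 include values of 0 set against 0. These were the passage 5 densities relative to the flanks and the shares of passage 0 window peaks with a passage 5 peak. With only 0 to 2 window peaks behind them, such values could hardly move. Near meant within 1.5 times for peak counts and covered bases, and within the 95% counting interval for density ratios and shares. With the upper 50% of each list by score, the windows held 0 peaks and 0 covered bases at passage 0, and their density relative to the flanks was 0, since the HoxA peak was left out. Without the HoxA window, an alternative chosen after seeing the data, the relative density was 0 as well, against 0.0484 for all 4. With windows 10 kb longer on each side there were 2 passage 0 peaks, the second at HoxB. Tiles with no passage 0 peak were 6.25% at the HoxB length when shifted along the chromosome, and 6.07%, 2.58%, 5.37% and 7.27% at the lengths of HoxA, HoxB, HoxC and HoxD with at least 40 flanking peaks. The last 2 settings were also chosen after seeing the data. The share of passage 5 window peaks with a passage 0 peak had no value under any setting, as there were 0 such peaks. No paired analysis was possible because there was 1 library per passage, and for the same reason no replicate could be left out. Unknown read depth limits every statement on missing peaks: a stretch without a peak may still carry 5hmC.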

Other observations

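Other loci combined a long stretch without a passage 0 peak with still denser surroundings than the Hox clusters. On the autosomes 1684 stretches of at least 200 kb had no passage 0 peak, with a median of 17 peaks within 500 kb of their ends. By that number HoxD ranked 82, HoxB 241 and HoxC 487. The first was chr5:124982342-125302401, 320 kb long with 118 surrounding peaks and 1 passage 5 peak inside. Next came chr10:82784290-83063400 with 111 surrounding peaks, chr10:81091497-82151366 with 106, chr13:60845267-62957973 with 96 and chr13:113662273-113909256 with 91, none of which held a passage 5 peak. The stretches on chromosome 10 at 81091497 and on chromosome 13 at 60845267 were 1060 kb and 2113 kb long. Assembly gaps were not removed, and no mm9 genes were set beside these stretches.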
